A study of Mus musculus with 7 samples.

Results

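Serine protease inhibitors of the serpin family, the plasminogen activators, the cell-surface receptors that read this proteolysis and cystatin C were followed in the adult mouse dentate gyrus (DG) and in neural stem and progenitor cells (NSPCs) cultured from it. The set was a list of 9 named genes, Serpine2, Serpinh1, Serpinf1, Serpini1, Plat, Plau, Plaur, F2r and Cst3, all of which were found by symbol. They were 9 of 50600 entries in the bulk count table and 9 of 15536 genes in the single-cell table. All 9 entered the bulk test.

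Bulk RNA-seq was deposited for 4 primary NSPC cultures, 2 female (F1, F2) and 2 male (M1, M2), and for the whole DG of 1 female (F1) and 1 male (M2) mouse. A droplet single-cell library held equal numbers of cells from 3 cultures, 2 female and 1 male, mixed before loading, and its cells cannot be assigned to a culture. All mice were C57Bl6J with no engineered allele named, aged 6 to 8 weeks for the bulk cultures, 7 to 9 weeks for whole DG and 6 to 9 weeks for the single-cell cultures. The cultures were adherent, at passage 6 to 15, in neurobasal medium given EGF and FGF2, the growth factors that keep such cells dividing, at 20 ng/ml each, and whole DG was not cultured.

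Total counts ran from 9917697 to 11747408 in cultures and from 16676618 to 17351636 in whole DG. As a check of the labels, summed neuronal markers were 52.1 to 65.4 counts per 1000000 counts (CPM) in cultures and 10087 to 10576 in whole DG, and summed neural stem and progenitor markers 5326 to 5787 and 758 to 795 (6 of 8 higher in cultures, 2 lower). Oligodendrocyte precursor markers summed to 1738 to 3535 CPM in cultures and 177 to 198 in whole DG, with 2 of 5 higher, 2 lower and Sox10 at 0 in cultures. Astrocyte markers summed to 503 to 1399 against 3649 to 4201 CPM (1 of 8 higher, 5 lower), and oligodendrocyte markers to 93.2 to 144 against 1244 to 1530 (5 of 6 lower). Microglial, endothelial, and mural and fibroblast markers summed to at most 16.8 CPM in any culture, with Aif1, C1qa and Cldn5 at 0, against 103 to 284 in whole DG. Whole DG also held transcripts known from hepatocytes: 10 such markers, chosen after the data were seen, summed to 233 to 267 CPM there, against 2.31 to 3.34 in cultures, with albumin (Alb) at 145 and 127 CPM. All 10 were lower in cultures by edgeR's test, and 3 of them were at 0 in every culture. The library kit differed between the groups (SMART-Seq HT for cultures, NEBNext Ultra II Directional for whole DG), and the labels give an RNA integrity number of 10 for cultures and over 8 for whole DG, so an effect of the kit or RNA quality and one of the group cannot be told apart. Within a bulk sample, fewer cells of a type and less RNA per cell cannot be told apart either.

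Plasminogen activators are serine proteases that turn plasminogen into plasmin, which cuts fibrin, matrix proteins and growth factor precursors. Tissue plasminogen activator (Plat) is the main one of brain, where it acts on synapses, migrating neurons and the vessel wall, and urokinase (Plau) works at the cell surface on its receptor (Plaur). Inhibitory serpins trap such proteases in a covalent complex that is cleared through lipoprotein receptors, while a few serpins, such as the collagen chaperone Serpinh1 and pigment epithelium-derived factor (Serpinf1), inhibit no protease. Thrombin signals to cells by cutting protease-activated receptor 1 (F2r), and protease nexin 1 (Serpine2) is a strong inhibitor of thrombin. Cystatin C (Cst3) is a secreted inhibitor of cysteine cathepsins and is known as a cofactor of FGF2 in neural stem cell growth.

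The stretches before the RefSeq starts of 3 genes that were high in cultures (Serpine2, Serpinh1, F2r) and of Serpini1, which was low, are shown to set these members side by side. RefSeq's table (GRCm38.p6) held 7 of the 9 members. At least 1 GENCODE M21 transcript each of Serpinh1 and F2r held the bases just after its RefSeq start, while none of Serpini1 did. For Serpine2 a search of single sequence lines found none. Yet 31 bases of its window lie in GENCODE exons, next to the start, so that search does not show that its transcripts lack these bases. The Serpine2 stretch lies inside that gene's GENCODE span (79794197 to 79861180). Sequences run 5′ to 3′ on the gene's strand, bases in any GENCODE M21 exon are left out, and capitals mark matches to the motifs searched. These are chr1:79858697-79858915 (minus strand), chr7:99353240-99353489 (minus), chr13:95618488-95618716 (minus) and chr3:75557243-75557492 (plus).
Serpine2: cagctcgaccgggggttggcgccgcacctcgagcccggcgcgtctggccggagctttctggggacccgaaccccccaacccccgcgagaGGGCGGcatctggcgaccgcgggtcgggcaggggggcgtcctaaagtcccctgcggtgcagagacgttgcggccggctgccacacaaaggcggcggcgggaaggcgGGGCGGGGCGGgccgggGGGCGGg
Serpinh1: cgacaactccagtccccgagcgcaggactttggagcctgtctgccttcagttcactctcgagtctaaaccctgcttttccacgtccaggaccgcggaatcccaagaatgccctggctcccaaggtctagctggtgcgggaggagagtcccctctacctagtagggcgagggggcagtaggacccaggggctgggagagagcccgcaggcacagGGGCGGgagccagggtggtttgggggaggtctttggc
F2r: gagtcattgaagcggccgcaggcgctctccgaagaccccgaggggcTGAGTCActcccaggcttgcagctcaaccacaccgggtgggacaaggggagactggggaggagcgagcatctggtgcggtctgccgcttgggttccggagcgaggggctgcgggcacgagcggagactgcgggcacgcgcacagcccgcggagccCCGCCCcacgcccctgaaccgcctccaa
Serpini1: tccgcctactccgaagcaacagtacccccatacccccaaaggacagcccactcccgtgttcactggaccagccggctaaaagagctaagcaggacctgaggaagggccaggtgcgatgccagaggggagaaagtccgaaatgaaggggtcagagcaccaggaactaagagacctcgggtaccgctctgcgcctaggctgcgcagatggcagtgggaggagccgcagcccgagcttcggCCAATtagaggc

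The motifs, searched on both strands in the 250 bases before each start, were spelled as follows. The GC box was GGGCGG. The CCAAT box was searched by its own letters, and the TATA box as TATAAA. The AP-1 site was TGANTCA, where N is any base. The heat shock element was GAANNTTC. Serpine2 had 6 GC box matches, 4 of them in the bases printed and some sharing a base, in a window of 78.8% G or C. The Serpinh1 window had 1 GC box match, and that of F2r had 1 GC box match and 1 AP-1 match. Serpini1 had no GC box match and 1 CCAAT match, 12 bases before the start. Among all 32851 RefSeq starts, 32.7% had a GC box match, 33.8% a CCAAT match, 12.4% a TATA box match, 6.75% an AP-1 match and 6.69% a heat shock element match. None of the 7 members held the letters of the TATA box or of the heat shock element in this window. A match is a run of letters and was not tested as a binding site.

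Between cultures and whole DG, 8 of the 9 members passed the threshold (edgeR's quasi-likelihood test, adjusted p under 0.05), 4 higher in cultures and 4 lower. Of all 18088 genes tested, 77.3% passed, 35.6% higher and 41.7% lower, so the share of members called was near that of genes at large. Serpine2, Serpinh1, Plat and F2r were higher in cultures, by 15.6-fold (Plat) to 86.8-fold (F2r). Serpini1, Plau, Cst3 and Serpinf1 were lower, and Plaur did not pass. The CPM of the groups did not overlap for 8 members, every member but Plaur, against 83.6% of all genes tested. The median log2 difference of all tested genes was -0.13 and lay between -0.23 and 0.05 under the other scalings, which turned the direction of no member.

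**Figure D1:**
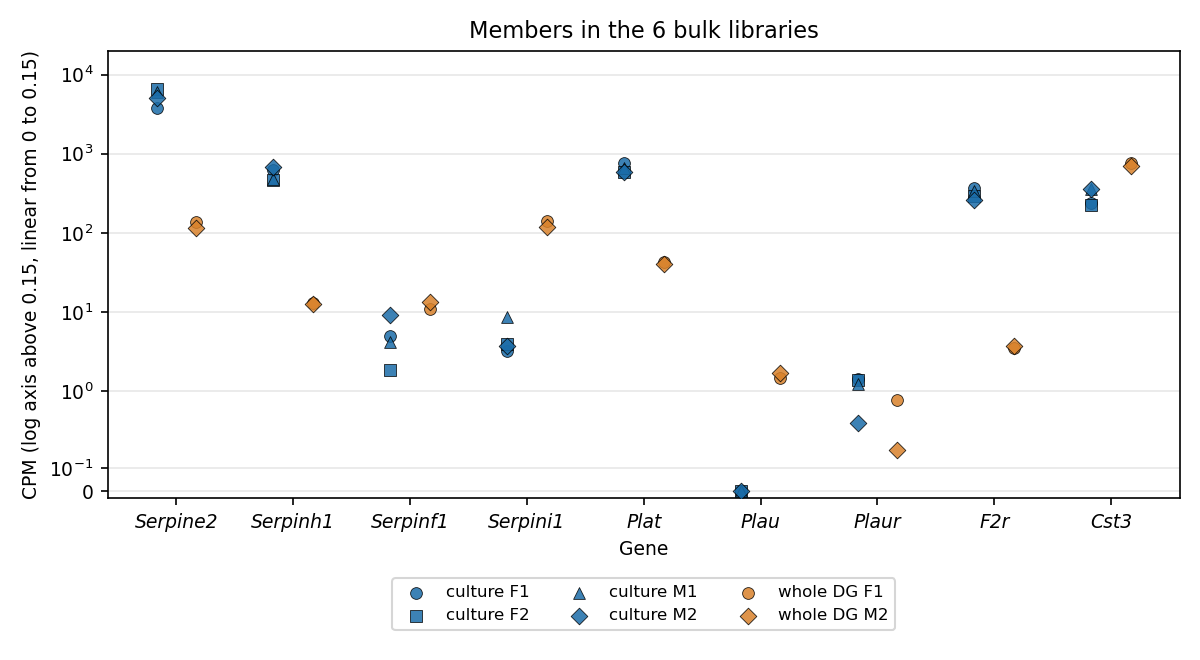
CPM of the 9 members in each of the 4 cultures (blue) and 2 whole DG libraries (orange), with marker shapes for the replicate names; the axis is logarithmic with a short linear stretch at its foot. Serpine2 stands at 3829 to 6493 CPM in cultures against 115 and 137 in whole DG, and Plau lies at 0 in every culture.

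Among the inhibitors, Serpine2 (chromosome 1, 79794197 to 79861180 on GRCm38, minus strand) was the most abundant member in cultures. It had 3829, 6493, 6032 and 5116 CPM in cultures F1, F2, M1 and M2, and 137 and 115 CPM in whole DG F1 and M2. Every culture lay far above both tissue libraries, and the lowest culture was F1. The means were 5368 ± 1174 (SD, n = 4) and 126 ± 15.9 CPM (n = 2), which differed by 5.42 in log2 units (SE 0.29, edgeR adjusted p = 1.11e-06). Per kilobase of exon, Serpine2 ranked 32 of 17518 genes in the cultures' mean and 4044 in that of whole DG.

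Serpini1 (chromosome 3, 75557547 to 75643495, plus strand) encodes neuroserpin, the inhibitor of tissue plasminogen activator made chiefly by neurons. It showed the opposite order, with 3.22, 3.90, 8.60 and 3.71 CPM in the 4 cultures and 140 and 118 CPM in whole DG. The 2 tissue libraries were high and the 4 cultures low, with M1 above the other three. In log2 units the difference was -4.74 (SE 0.34, edgeR adjusted p = 5.01e-06), 26.6-fold lower in cultures. The 8 neuronal markers were lower in cultures as well (8 of 8), and their part in this difference was not tested. The gene spans the gene model Gm37672 on the same strand, which shares 0 exon bases with it.

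The 2 inhibitors stood in different ratios in the groups. The ratio of Serpine2 to Serpini1, in CPM per kilobase, was 1045, 1463, 617 and 1213 in cultures F1, F2, M1 and M2, and 0.858 and 0.850 in whole DG F1 and M2. The 2 transcripts stood near equal levels in tissue, while Serpine2 was at least 617 times the level of Serpini1 in each culture. Against the protease, the ratio of Serpine2 to Plat was 3.81, 8.36, 6.99 and 6.54 in cultures and 2.43 and 2.14 in whole DG. That of Serpini1 to Plat was 0.00364 to 0.0113 in cultures and 2.83 and 2.52 in whole DG. No ratio overlapped between groups, and each gave an exact permutation p of 0.133 (two-sided, n = 4 and 2), the smallest that the 15 arrangements allow.

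Serpinh1 (chromosome 7, 99345376 to 99353239, minus strand), the collagen chaperone of the endoplasmic reticulum, had 630, 460, 479 and 680 CPM in the 4 cultures. Whole DG held 13.1 and 12.6 CPM. The cultures differed among themselves by at most 1.48-fold, and all lay far above tissue. The log2 difference was 5.45 (SE 0.25, edgeR adjusted p = 5.42e-07), or 43.8-fold.

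Serpinf1 (chromosome 11, 75409769 to 75422701, minus strand), a secreted factor known for neurotrophic and antiangiogenic activity, was low in both groups. It had 60, 21, 44 and 93 counts in cultures F1, F2, M1 and M2, which is 4.96, 1.82, 4.20 and 9.07 CPM. Whole DG F1 and M2 had 170 and 220 counts, a mean of 12.2 ± 1.70 CPM (SD, n = 2). Culture M2 came close to the lower tissue library, and the cultures spanned 4.98-fold. The log2 difference of -1.28 (SE 0.49) was near the threshold (edgeR adjusted p = 0.0402) and missed it under 8 of 16 alternatives, with adjusted p from 0.00548 to 0.218. Without culture F1 or M1 the adjusted p was 0.0795 or 0.0845, and without whole DG F1 or M2 it was 0.100 or 0.183. Serpinf1 is also known from liver, and the part of the hepatocyte transcripts in its tissue level was not tested.

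Of the 2 activators, Plat (chromosome 8, 22757727 to 22782844, plus strand) was the one measured in cultures. It had 758, 585, 650 and 589 CPM in the 4 cultures and 42.5 and 40.3 CPM in whole DG. The cultures were high and close together, the highest 1.30 times the lowest. The log2 difference was 3.96 (SE 0.18, edgeR adjusted p = 4.87e-07), or 15.6-fold.

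Plau (chromosome 14, 20836660 to 20843385, plus strand) had 0 counts in all 4 cultures and 23 and 28 counts in whole DG, or 1.48 and 1.70 CPM. Its level was at least 23.6-fold lower in cultures, taking 3 counts over the 4 cultures as the floor (edgeR adjusted p = 0.00100). The single-cell library, made from other cells of such cultures, held 7 Plau UMIs (unique molecular identifiers) among 14912 cells, so the transcript was detected there at a trace.

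The urokinase receptor Plaur (chromosome 7, 24462484 to 24475968, plus strand) was near the limit of detection throughout. Its counts were 17, 16, 13 and 4 in cultures F1, F2, M1 and M2, and 12 and 3 in whole DG, which is 1.41, 1.39, 1.24 and 0.390 against 0.775 and 0.182 CPM. The groups overlapped, with culture M2 below the other cultures. The log2 difference of 1.21 (SE 0.72) did not pass (edgeR adjusted p = 0.154), nor did it under any of the 16 alternatives (0.0574 to 0.641). Without whole DG F1 the difference was 2.54, and without whole DG M2 it was 0.51. A difference was not detectable at this depth.

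F2r (chromosome 13, 95601803 to 95618487, minus strand), the receptor cut by thrombin, differed most in fold among the members with counts in both groups. It had 365, 289, 338 and 258 CPM in the 4 cultures and 3.49 and 3.71 CPM in whole DG. The lowest culture lay far above both tissue libraries. The log2 difference was 6.44 (SE 0.24, edgeR adjusted p = 1.95e-07). Per kilobase, F2r moved from rank 14240 of 17518 genes in whole DG to rank 616 in cultures.

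Cst3 (chromosome 2, 148871722 to 148875692, minus strand) was the member with the highest level per kilobase in whole DG, where it ranked 25 of 17518 genes. It had 239, 223, 360 and 354 CPM in cultures F1, F2, M1 and M2, and 755 and 703 CPM in whole DG. Both tissue libraries were above all cultures, and the 2 male cultures were above the 2 female ones. The log2 difference was -1.31 (SE 0.21, edgeR adjusted p = 0.000608), 2.48-fold lower in cultures. Astrocytes and microglia are known to make Cst3; of their markers, 5 of 8 and 8 of 8 were lower in cultures, and their part in this difference was not tested. When a difference above 2-fold was asked for, the adjusted p was 0.0575. Cst3 remained abundant in cultures, at 232 ± 57.7 CPM per kilobase (SD, n = 4, rank 166).

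Per kilobase of exon, the mean levels in cultures ran from Serpine2 (648) through Cst3 (232), Serpinh1 (230), Plat (103) and F2r (93.6) to Serpinf1 (2.13), Serpini1 (0.667), Plaur (0.423) and Plau (0). Within libraries, Cst3 was above Serpinh1 in 2 of 4 cultures, so this pair had no fixed order. Plat was above F2r in 4 of 4 cultures, and their means differed by less than the SDs of 12.9 and 14.4 over cultures. In whole DG the order was Cst3 (576), Serpini1 (17.8), Serpine2 (15.2), Plat (6.63), Serpinh1 (5.26), Serpinf1 (5.16), F2r (1.08), Plau (0.673) and Plaur (0.183). There, Serpini1 was above Serpine2 in both libraries, with SDs of 2.13 and 1.92 (n = 2).

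**Figure D2:**
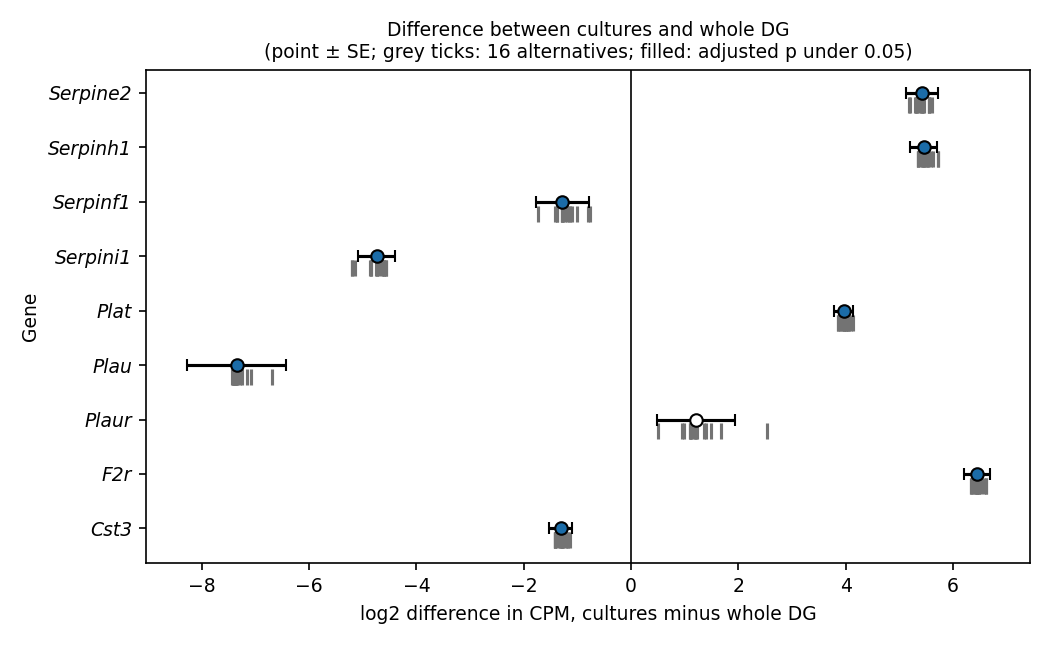
Log2 difference in CPM between cultures and whole DG for each member (point, with SE) and under the 16 alternatives (grey ticks); filled points passed adjusted p 0.05. F2r lies highest at 6.44, Plaur is open at 1.21, and the Plau point depends on the prior count because its cultures had 0 counts.

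The sexes were compared in the 4 cultures, 2 female against 2 male. None of the 8 members tested passed the threshold (edgeR), against 0.0264% of 15140 genes, and 1 had an unadjusted p under 0.05. That member was Cst3, with 239 and 223 CPM in female cultures and 360 and 354 in male ones (log2 difference, female minus male, -0.64, SE 0.14, edgeR unadjusted p = 0.00349, adjusted p = 0.746). DESeq2 called 0 members. With no filter on low counts, the adjusted p of Cst3 was 0.0486, and over all the alternatives it lay between this value and 1.000. Plaur did not overlap between the sexes either, at a mean of 1.40 CPM in female and 0.816 in male cultures (edgeR adjusted p = 0.891). Among all genes tested, 36.6% did not overlap between 2 female and 2 male cultures, against 2 of 8 members. Sex rests on the letters in the sample names and on 2 cultures of each.

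The rest of the serpin family was mostly undetected or lower in cultures. The table held 64 other Serpin symbols, of which 20 had enough counts to test: 2 were higher in cultures, 14 lower and 4 did not pass. Their median log2 difference was -4.44, or -4.16 with the 7 genes at 0 in every culture set at their bound, against -0.13 for all genes. The largest falls among serpins of at least 10 CPM were Serpina1b, at least 245-fold (16.6 CPM in whole DG), and Serpina1c, at least 219-fold (14.8 CPM), both copies of the blood protease inhibitor alpha-1-antitrypsin. Reads from the near-identical Serpina1 copies may have been split or lost, so single values are uncertain. Serpina1, Serpina3k, Serpinc1, Serpind1, Serpinf2 and Serpina10 are known as liver products, and the hepatocyte markers fell with them (10 of 10); their part in these counts was not tested.

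The 2 most abundant other serpins, Serpina3n and Serpinb6a, did not pass. Serpina3n, an inhibitor induced in reactive astrocytes, varied widely among cultures (17.8 ± 21.0 CPM, n = 4, against 53.8 ± 8.42, n = 2) and its log2 difference of -1.59 became -2.79 (edgeR adjusted p = 0.00409) without culture M1. Serpinb6a, an intracellular inhibitor, had 27.7 ± 3.74 and 36.4 ± 0.158 CPM (log2 difference -0.40, edgeR adjusted p = 0.0569). The 2 that were higher, named after their values were seen, were Serpinb5 (15.7 ± 9.59 against 0.0627 CPM) and Serpinb1a (10.1 ± 1.45 against 2.51 CPM).

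Plasminogen and its surface and clearance partners split by role. Of 18 genes tested, 6 were higher in cultures, 10 lower and 2 did not pass (median log2 difference -0.98). Plg itself, plasminogen, had 1 count in all 4 cultures together and 193 counts in whole DG, a further liver product. The highest fold among the 6 was Anxa2 (annexin A2, 293 ± 53.4 against 3.48 CPM), followed by its partner S100a10 (195 ± 39.7 against 9.43 CPM), which together form a cell-surface receptor for plasminogen and its activator. Eno1, a glycolytic enzyme also known as a plasminogen receptor, rose to 3376 ± 373 from 638 ± 42.7 CPM (log2 2.40, edgeR adjusted p = 3.45e-06). Anxa2, S100a10, Plg and, in the next lists, F2 and Plxdc1 were named after their values were seen.

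On the clearance side, Lrp1, the receptor that takes up serpin-protease complexes, fell from 422 ± 78.9 CPM in whole DG to 152 ± 59.7 in cultures (log2 difference -1.48, edgeR adjusted p = 0.00247, and 0.0512 when a fold above 2 was asked for). Vtn, vitronectin, a matrix and blood protein and also a mural cell and liver transcript, had 1 count in the 4 cultures together against 1062 in whole DG (edgeR adjusted p = 4.91e-07). With a single count, the 1475-fold ratio of the pooled levels has a 95% counting interval of 264 to 58317. Its fitted log2 difference of -10.01 became -11.75 without culture F2, which holds that count. Fgb, a fibrinogen chain, was at 0 in cultures, at least 194-fold below the 13.1 CPM of whole DG. What part the hepatocyte transcripts had in the tissue levels of Plg, Vtn and Fgb was not tested.

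Around the thrombin receptor, 3 of 14 genes tested were higher in cultures and 8 lower (median -0.99). F2, prothrombin, had 0 counts in the cultures and 144 in whole DG, at least 66.7-fold lower. The hepatocyte markers were lower in cultures as well (10 of 10), and their part in this difference was not tested. Pros1, protein S, a cofactor in anticoagulation and a ligand of TAM receptors, rose to 158 ± 22.3 from 9.46 ± 0.310 CPM (log2 difference 4.06, edgeR adjusted p = 6.01e-07). Among the 4 listed G protein subunits known to couple to F2r, Gna12 (log2 difference -3.30) and Gnaq (-0.92) fell. Gna13, named after its values were seen, rose from 56.1 to 97.5 CPM (0.80, edgeR adjusted p = 0.00273). Gna11 had a difference of 0.32 that did not pass (edgeR adjusted p = 0.0512) and that passed at 0.50 with upper quartile scaling. Gnaq did not pass when a fold above 2 was asked for (edgeR adjusted p = 0.613).

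Among 14 other extracellular serine proteases of brain, 12 were tested, 2 higher and 7 lower (median -2.45). Prss23 rose to 201 ± 55.9 from 15.0 ± 1.39 CPM. Prss12 (neurotrypsin, a neuronal protease that cuts agrin) fell from 17.1 to 0.328 CPM, Reln (reelin, a guidance protein with protease activity) from 68.2 to 4.79, and Htra1 from 164 to 31.1. The log2 difference of Reln was -3.83, and -4.48 without culture M1.

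Beside Cst3, 4 other cystatin family genes were tested, 2 higher and 2 lower. Cstb, the intracellular cystatin B, rose to 36.2 ± 7.44 from 13.6 ± 0.179 CPM, and Ahsg, fetuin A of liver, was at 0 in cultures and at 12.8 CPM in whole DG. Of 9 cysteine proteases tested, the cathepsins that cystatin C inhibits and legumain (Lgmn), 3 were higher, 1 lower and 5 did not pass (median 0.24). Lgmn was among those that did not pass. Ctsc rose to 160 ± 59.2 from 6.12 ± 0.834 CPM. Ctss, a microglial cathepsin, fell from 46.9 CPM to 2 counts in the 4 cultures together, with all 8 microglial markers lower as well, whose part was not tested. Ctsb, the most abundant, had 396 ± 56.7 and 439 ± 22.3 CPM and did not pass (edgeR adjusted p = 0.395).

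The enzymes that fold and modify collagen beside Serpinh1 divided by gene, 8 of 15 higher and 5 lower (median 0.85). P4hb rose to 731 ± 61.2 from 112 ± 3.16 CPM, Crtap to 76.5 ± 11.2 from 3.87 ± 0.916 and Ppib to 304 ± 30.0 from 111 ± 16.3, while P3h3 fell to 0.523 from 18.6. The clients were split too: of 13 collagen chains, 4 were higher, 5 lower and 4 did not pass, with a median of -0.13, equal to that of all genes and of the opposite sign under 2 other scalings. Col18a1 rose to 167 ± 110 from 6.38 ± 0.174 CPM and Col4a5 to 42.7 ± 14.6 from 2.66 ± 0.198, while Col4a1 did not pass (62.6 ± 21.8 and 43.9 ± 7.14). The fibrillar chains, named after their values were seen, were split as well. Col5a2 rose to 40.2 from 6.20 CPM and Col11a1 to 27.2 from 4.32, and Col5a1 did not pass. Col1a1, Col1a2 and Col3a1 fell to under 1 CPM. The mural and fibroblast markers were lower as well (7 of 8), and their part was not tested.

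Of 4 reported receptors of the Serpinf1 protein, Pnpla2 (0.62) and Plxdc2 (0.74) were higher in cultures and Lrp6 (-3.05) and Plxdc1 (-3.03) lower on the log2 scale. The 2 rises did not pass without whole DG M2 (edgeR adjusted p = 0.0943 and 0.0854).

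**Figure D3:**
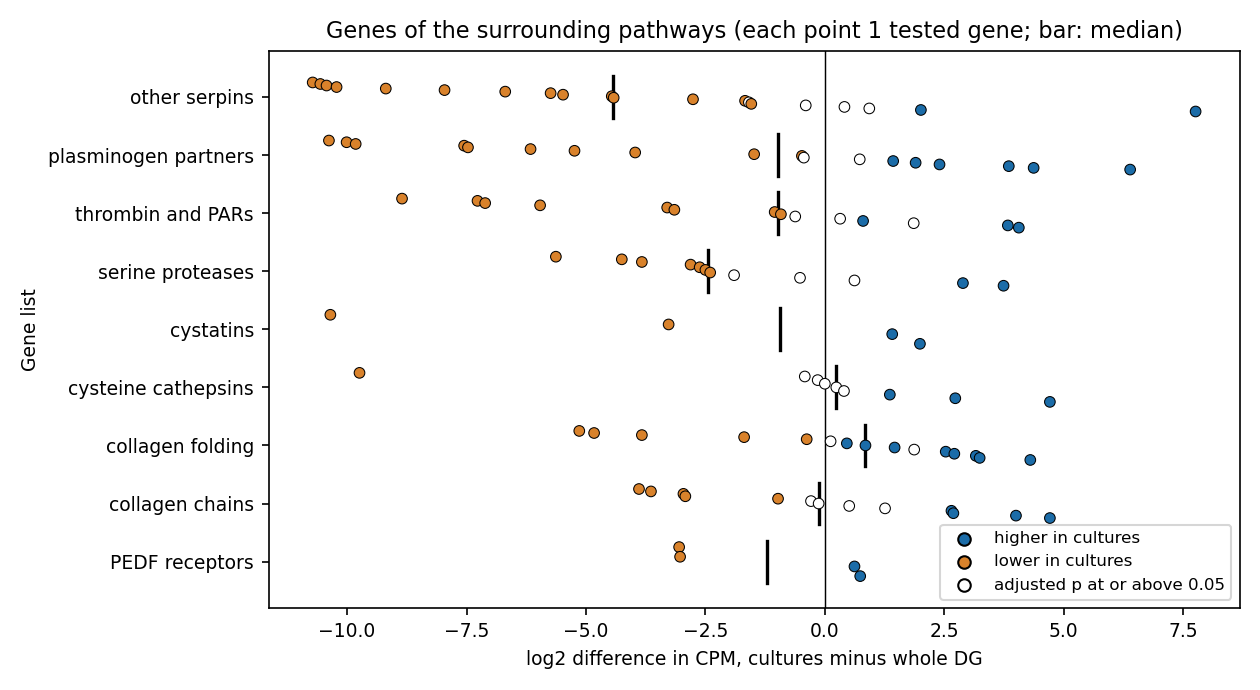
Log2 difference in CPM between cultures and whole DG for every tested gene of 9 pathway lists (points) with the list's median (bar). The other serpins lie mostly to the left (median -4.44), the collagen folding enzymes have a median of 0.85, and points of genes with 0 culture counts depend on the prior count.

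In single cells, the members kept the order they had per kilobase in the bulk cultures, from Serpine2 and Cst3 down to Plaur and Plau. The table held 14912 cells of 2001 to 8531 UMIs (median 4048) in the 6 clusters the authors numbered 0 to 5, with no barcode used more than once. Levels are UMIs per 10000 UMIs. The cells form 1 library and the clusters were made from the same genes, so the values are a description with no test, and the 95% Poisson and Clopper-Pearson intervals cover counting error only.

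Serpine2 stood at 15.0 UMIs per 10000 (14.9 to 15.1), rank 105 of 15536 genes, with at least 1 UMI in 98.9% of cells. Cst3 followed at 5.12 (82.7% of cells), Serpinh1 at 3.06 (69.4%), Plat at 1.52 (45.1%) and F2r at 0.492 (18.3%). With each cell thinned to 2000 UMIs, the shares were 92.9%, 60.2%, 45.1%, 25.9% and 9.70%. Serpinf1 had a UMI in 4.61% of cells and Serpini1 in 0.878%. Plaur had 19 UMIs in all and Plau 7. The level of free RNA was not measured, as no cell class known to lack these genes was in the culture, so the lowest shares are not read as expression. Of thinned cells, 39.8% held a UMI of 2 members, 32.8% of 3, and 1.01% of none.

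Across clusters Serpine2 was highest in cluster 0 at 18.6 UMIs per 10000 (18.4 to 18.8), followed by clusters 3 (15.3), 4 (14.4), 2 (14.0), 1 (13.1) and 5 (11.8). The intervals of no neighbours in this order overlapped, though the range was only 1.58-fold and a UMI was found in at least 97.7% of cells of every cluster. Cluster 0 was also the one with the lowest summed proliferation markers, at 18.7 UMIs per 10000 against 44.3 in cluster 4. The order of Serpine2 did not follow these markers throughout, as cluster 5 had the second lowest sum and the lowest Serpine2.

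Cst3 was likewise highest in cluster 0 at 6.64 (6.51 to 6.77) and lowest in cluster 5 at 4.15 (3.97 to 4.34). Clusters 3, 4 and 1, at 4.96, 4.94 and 4.70, overlapped as neighbours, as did clusters 2 and 5. Serpinh1 had a different order, with cluster 5 highest at 4.74 (4.55 to 4.95) and a UMI in 85.3% of its cells, clusters 0 and 3 at 3.16 and 3.08, and cluster 4 lowest at 2.61 (2.50 to 2.73). The summed level of the 15 other collagen folding enzymes was 10.1 in cluster 5 and 10.1 to 10.8 in the others. Over all cells Ppib made up 6.17 of the summed 10.5, so the sum mostly follows that gene and does not show the rest singly.

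F2r was lowest in cluster 5 at 0.348 (0.296 to 0.406), while clusters 1, 4, 3, 0 and 2 lay between 0.472 and 0.560 with overlapping neighbours. Of these, clusters 1 (0.518 to 0.604) and 2 (0.438 to 0.507) did not overlap. Plat was the most even member, from 1.40 in clusters 2 and 4 to 1.62 in clusters 0 and 1, with every neighbour overlapping. Its clusters 0 (1.55 to 1.68) and 2 (1.34 to 1.46) did not overlap. Serpinf1 (0.0956 to 0.160) and Serpini1 (0.0109 to 0.0245) gave no order beyond counting error between neighbours. The highest and lowest clusters of Serpinf1, 5 (0.125 to 0.201) and 1 (0.0787 to 0.115), did not overlap, while those of Serpini1 did. For Serpine2, Serpinh1, Cst3 and F2r, the highest and lowest clusters were the same after thinning.

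**Figure D4:**
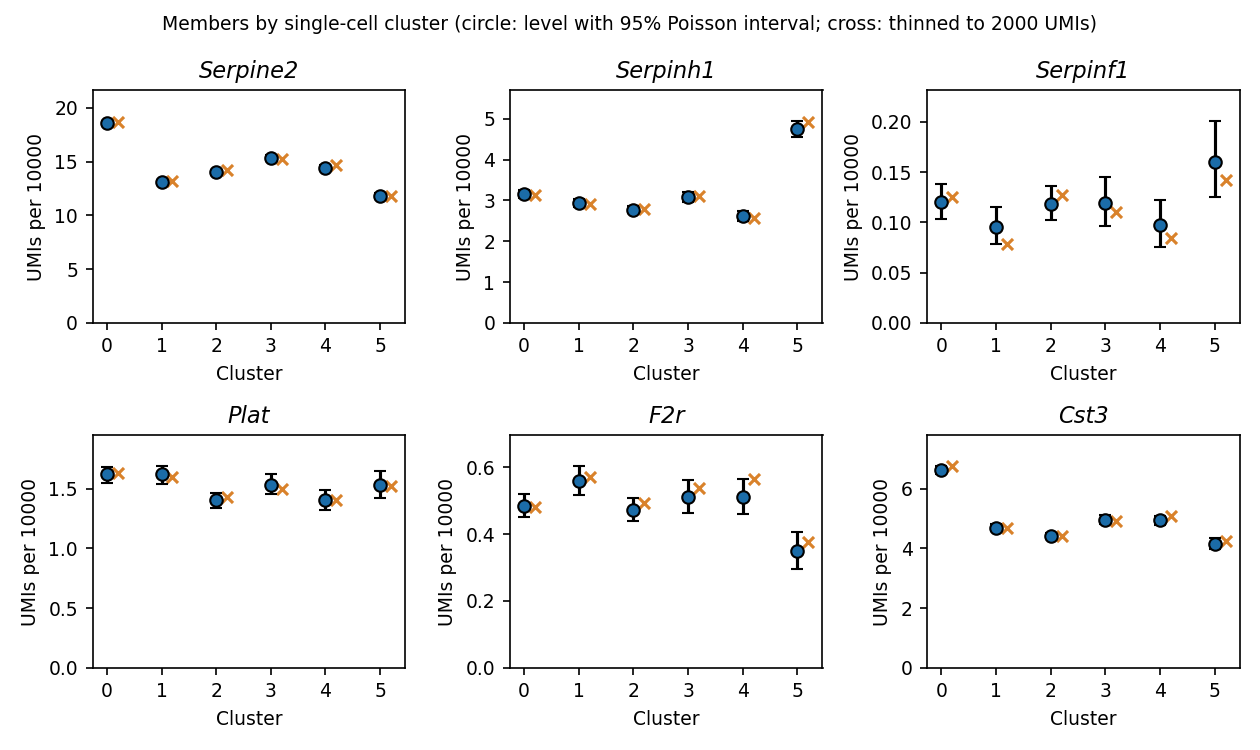
UMIs per 10000 UMIs of 6 members in clusters 0 to 5 (circles, with 95% Poisson intervals) and after thinning each cell to 2000 UMIs (crosses). Serpine2 and Cst3 are highest in cluster 0, at 18.6 and 6.64, Serpinh1 is highest in cluster 5 at 4.74, and Plat stays between 1.40 and 1.62.

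Among 1228 genes with at least 1 UMI per 10000 in every cluster, the patterns most like that of Serpine2 over the 6 clusters were those of Cpe (r = 0.9823 on log2 levels), Ntrk2 (0.9808) and Ptn (0.9774). Cpe encodes a carboxypeptidase, Ntrk2 the neurotrophin receptor TrkB and Ptn the growth factor pleiotrophin. Ptn stood at 31.9 in cluster 0 and 24.3 in cluster 5. The closest to Cst3 were Pea15a (0.9889), Ptpra (0.9882) and Mdh2 (0.9787). With 6 points that share 1 library, 48 genes exceeded r of 0.9 with Serpine2 and 58 with Cst3, so the order of likeness is a description only.

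Of the pathway around the members, the single-cell table held 12 of 18 plasminogen partners. Eno1 (6.02 UMIs per 10000, in 88.6% of cells), S100a10 (3.14, 66.2%) and Anxa2 (1.29, 37.4%) led them, while Plg and Vtn were not listed. The 9 other serpins in the table summed to 0.370 UMIs per 10000, below F2r alone. Microglial, endothelial, and mural and fibroblast markers summed to 0.00577, 0.0200 and 0.0388 UMIs per 10000.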

How the data were processed

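Bulk RNA-seq of 6 libraries and 1 single-cell library were used. The bulk table holds raw read counts per gene as deposited by the authors. The tools in the submitters' processing notes are HISAT2 2.0.6, featureCounts, Subread and CASAVA 1.8.2. These notes give GRCh38, a human build, for a table of mouse symbols. How reads were assigned to strands or to near-identical copies is not stated there. For single cells, the authors deposited the natural log of 1 plus UMIs per 10000, from which whole UMIs were recovered for 100% of entries within 0.01. The processing notes name Cell Ranger 3.1.0 and Seurat 3.1.0, and the labels' protocol names other versions. Cell filters and doublet treatment by the authors: not given in the sources used here. Neither a filter nor a doublet caller was added.

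Bulk counts went through edgeR 4.0.16 (R 4.3.3), with TMM factors, its default low-count filter and the robust quasi-likelihood F test. Group was the only term, or sex within cultures. P-values were adjusted by Benjamini and Hochberg over all genes tested, with 0.05 as threshold. The steps were tested on simulated data. CPM use TMM library sizes. Lengths are exon unions of GENCODE M21 (GRCm38). Alternatives were DESeq2 1.42.0, other scalings and filters, each library left out, a replicate block, thinning and a test for a fold above 2. The members and the 9 gene lists were chosen with earlier results of these data known. From each list, the 2 most abundant genes and the 2 with the largest change among genes called with at least 10 CPM in the higher group were named, and the 3 genes most like each of 2 members. Per the labels, cultures were separate, and each whole DG library came from its own mouse, so the spread tested is that of 4 cultures and 2 mice.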

Additional observations from a re-analysis of the deposited data

Results flagged for a closer look

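In 2 of the groups of 4 cultures examined, 1 library stood apart from the other three by Dixon's criterion at the 95% level, which sets the gap to the next library against the whole range. Serpini1 had 8.60 CPM in culture M1, the highest, with a gap of 0.874 of the range, and remained far below whole DG there. Plaur had 0.390 CPM in culture M2, the lowest, with a gap of 0.839, which rests on 4 counts. Chance flags about 1 in 20 such groups, and 8 members were examined.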

How the results depend on the processing

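Between cultures and whole DG, no member changed direction, nor any named gene but Ctsb, which did not pass (0.03 with upper quartile factors). Over 16 alternatives, 6 to 8 members passed the threshold between cultures and whole DG, 7 or 8 with any 1 library left out; Serpinf1 was the member lost, and a fold above 2 also lost Cst3. With the replicate block on libraries named F1 or M2, 8 members passed. Deviations from the group mean correlated at only 0.0416 between the libraries named F1 and 0.0543 between those named M2. The deviations of the 2 whole DG libraries mirror each other, so this check cannot tell whether same-named libraries share an animal. The labels do not state it. Between the sexes, 1 member, Cst3, passed with no filter on low counts, against 0 under the other alternatives; the cause was not tested. With 1 culture left out, log2 differences between the sexes changed direction for 4 members that did not pass: Serpine2 ranged from -0.55 to 0.21, Serpinh1 from -0.35 to 0.17, Plat from -0.10 to 0.29 and F2r from -0.06 to 0.33. The lone culture of a sex was then assumed to vary like the other sex. With each cell thinned, 6 of 9 members kept their highest cluster; Serpini1 and Plaur changed, and Plau had no UMI left. Serpinb6a (edgeR adjusted p = 0.0236 with DESeq2's size factors) and Gna11 each passed under 5 alternatives. With that scaling 2 cathepsins were lower instead of 1. Depth limits Plaur and Plau in both assays, and only 2 whole DG libraries set the tissue spread.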
